A study of Caenorhabditis elegans with 2 samples.

Results

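Y62E10A.13, ZK470.2, H18N23.2, Y59A8B.24, K01H12.4, T18D3.1, T18D3.9, F46E10.3, F29B9.11 and taap-1 are 10 little-studied genes of the nematode Caenorhabditis elegans, out of 19973 protein-coding genes on its nuclear chromosomes. They were chosen from the readout itself: each lies beside one of the 20 highest HIF-1 signals of the genome in ChIP-seq. The divergent genes T18D3.1 and T18D3.9 share a peak, so the genes account for 9 of the 20 peaks and of the 3531 peaks in the deposited reproducible list. Their signals are therefore a description and were not tested. The lowest of the 20 signals was 1818, at F46E10.3, and the next peaks outside the limit had 1794 and 1789.

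HIF-1 was mapped in whole larvae of mixed sex at the L4 stage, 52 hours after release from starvation-synchronized L1, in the strain OR3349. These worms form 1 stable transgenic line, in which the tag GFP-FLAG is fused to the C-terminal end of HIF-1, and chromatin was sonicated and precipitated with an antibody against GFP. The 2 libraries are biological replicates of this single group. The sources used here do not give the oxygen level, the promoter of the transgene or its copy number. No other condition, control library or other chromatin protein was analysed here, so nothing below compares conditions, and signal that other factors share at these sites cannot be told apart.

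HIF-1 is the worm's hypoxia-inducible transcription factor. In normal oxygen the prolyl hydroxylase EGL-9 marks it for degradation, and when oxygen falls it accumulates, pairs with AHA-1 and binds DNA at elements built around ACGTG or GCGTG. A ChIP-seq peak marks where the tagged protein was found on chromatin. It does not show which gene, if any, is regulated from there, and a mixture of all tissues does not show in which cells it was bound.

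The signal is the authors' own value for each region relative to a control alignment, and the summit is the base they gave as its highest point. Signals were not scaled between the lists for the pool, replicate 1 and replicate 2, so they are given separately and ranked within a list. The IDR list holds regions that passed the irreproducible discovery rate procedure. The candidate lists hold 30000 regions each, background included. The strongest IDR peak inside or within 5000 bp of a gene is called its lead peak. By this definition it exceeds every other IDR peak of its locus, so ratios between them are descriptions only.

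The DNA under the 9 lead summits is printed first, because the sequence was not used to choose the genes. Each line is the + strand of ce11, 5′ to 3′, from 50 bp left to 50 bp right of the summit, and further out for Y62E10A.13. Capitals mark every ACGTG or GCGTG, read on either strand, so that CACGT and CACGC are the same elements on the − strand.
Y62E10A.13 (chrIV:13395296-13395446): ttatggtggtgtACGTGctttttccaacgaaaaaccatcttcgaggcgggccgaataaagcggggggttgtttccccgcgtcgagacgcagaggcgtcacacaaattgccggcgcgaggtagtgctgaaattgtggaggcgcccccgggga
ZK470.2 (chrX:4142246-4142346): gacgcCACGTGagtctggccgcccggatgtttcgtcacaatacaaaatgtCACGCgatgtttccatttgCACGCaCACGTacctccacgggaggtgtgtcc
H18N23.2 (chrX:17631067-17631167): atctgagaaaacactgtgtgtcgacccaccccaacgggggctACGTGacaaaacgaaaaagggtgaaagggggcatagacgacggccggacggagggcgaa
Y59A8B.24 (chrV:17951346-17951446): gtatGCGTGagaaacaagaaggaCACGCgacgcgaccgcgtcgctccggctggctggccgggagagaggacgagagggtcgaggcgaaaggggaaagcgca
taap-1 (chrII:8483902-8484002): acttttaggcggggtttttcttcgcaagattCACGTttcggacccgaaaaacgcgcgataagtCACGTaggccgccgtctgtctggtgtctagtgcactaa
T18D3.1 and T18D3.9 (chrX:12454418-12454518): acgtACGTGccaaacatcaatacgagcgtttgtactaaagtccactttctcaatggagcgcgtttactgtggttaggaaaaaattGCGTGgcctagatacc
F29B9.11 (chrIV:4660472-4660572): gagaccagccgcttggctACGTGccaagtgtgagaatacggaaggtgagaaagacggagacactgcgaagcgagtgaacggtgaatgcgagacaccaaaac
K01H12.4 (chrIV:9718477-9718577): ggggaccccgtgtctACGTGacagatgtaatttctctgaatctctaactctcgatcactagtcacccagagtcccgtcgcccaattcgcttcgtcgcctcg
F46E10.3 (chrV:6517304-6517404): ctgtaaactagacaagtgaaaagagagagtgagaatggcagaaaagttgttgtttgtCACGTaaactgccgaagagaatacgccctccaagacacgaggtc

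Of the 9 lead peaks, 8 held ACGTG or GCGTG within 50 bp of the summit, against 42.1% of all IDR peaks. At 7 of the 9 the element had the form TACGTG, against 7.96% of all IDR peaks. These 7 were the peaks of ZK470.2, H18N23.2, taap-1, T18D3.1 with T18D3.9, F29B9.11, K01H12.4 and F46E10.3. The other 11 of the 20 highest peaks, which include those of egl-9, nhr-57, rhy-1 and pck-1, held the core at 8 and TACGTG at the same number, 8. The form was thus frequent among the highest peaks on both sides, and no test was run over so few peaks chosen by their signal. TACGTG contains ACGTG, so these counts overlap.

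The remaining lead peaks differed from these. Y59A8B.24 held a pair of GCGTG elements, centred 25 and 44 bp left of the summit, and its nearest ACGTG lay 212 bp away. Y62E10A.13, the highest peak of the 9, held no core within 50 bp. Its nearest element lay 61 bp left of the summit and was again a TACGTG. With a window of 100 bp all 9 lead peaks held a core, as did 59.8% of IDR peaks, and 8 of 9 held TACGTG, as did 11.7%. The wider window for TACGTG was chosen after seeing the sequences. With 25 bp only 4 of 9 held a core, against 883 of the 3531 IDR peaks, so at the others the elements lay further from the summit.

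The number of elements varied as well. At 4 of the 9 lead peaks 2 or more matches lay within 50 bp, against 12.5% of IDR peaks. The other 11 of the 20 highest peaks also had 2 or more at 4. Among the 9, ZK470.2 had the most with 5. A pair of those 5 came from 1 palindromic CACGTG, the E-box bound by many helix-loop-helix proteins, which reads as ACGTG on both strands. CACGTG occurred at 1 of 9 lead peaks and at 5.52% of IDR peaks. TGATAA, a form recognised by GATA factors, occurred at 0 of 9 and at 9.52% of IDR peaks. The longer form TACGTGACA, noticed in the printed windows, lay at the lead peaks of H18N23.2, K01H12.4 and F46E10.3, at 23 of all 3531 IDR peaks (0.651%) and at 0 of the other 11 highest peaks. Since the lead windows prompted this form, its counts there and at the other 11 are not an independent comparison.

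**Figure D1:**
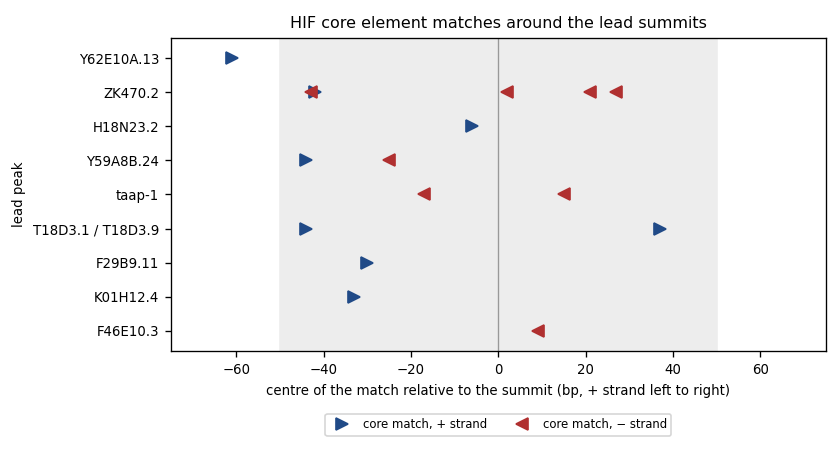
Position of the HIF core (ACGTG or GCGTG) around the 9 lead summits, as distance in bp from the summit. Arrowheads point right for the + strand and left for the − strand, the grey band spans 50 bp on each side, and matches outside it are drawn only for Y62E10A.13, whose nearest lies 61 bp to the left.

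Both replicates held every lead peak. All 9 had a candidate summit within 100 bp in each replicate, as did 96.1% of IDR peaks, and the replicate summits lay at most 10 bp from the pooled one in replicate 1 and 11 bp in replicate 2. Ranks ran from 3 to 20 in replicate 1 and from 3 to 21 in replicate 2, and no peak differed by more than 2 ranks between them. In the lists on the older build ce10 the 9 peaks had the same ranks as on ce11. The IDR list was derived from both replicates, so this repeats the choice of the genes and is not separate evidence for it.

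**Figure D2:**
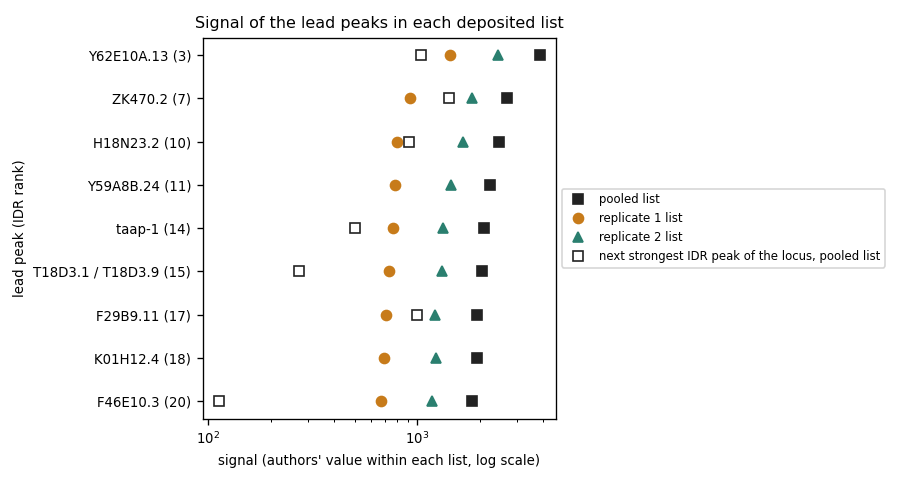
Signal of each lead peak (filled symbols) in the pooled, replicate 1 and replicate 2 lists on a log axis, with its IDR rank in brackets, and of the next strongest IDR peak within 5000 bp of the gene in the pooled list (open squares). The lists are not scaled to each other, and Y59A8B.24 and K01H12.4 have no further IDR peak.

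The 10 genes fall into 3 kinds by position. Lead summits lay inside a long intron at Y62E10A.13, ZK470.2 and H18N23.2. They lay upstream of a start, within 1000 bp, at Y59A8B.24, taap-1, the T18D3 pair, F29B9.11 and F46E10.3. The summit of K01H12.4 lay far downstream. Among the 9 peaks 3 were intronic, against 23.6% of IDR summits, and 5 lay within 1000 bp of a transcript start, against 61.4%. The lead summit was nearest to a start of the member itself for 7 of the 10 genes. The genes were chosen for lying beside these peaks, so this count is partly set by that choice. No share over all IDR peaks is given for comparison. The exceptions were ZK470.2, T18D3.1 and F46E10.3. T18D3.1 shares its summit with T18D3.9, whose start was nearer, so T18D3.1 could not count as well.

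**Figure D3:**
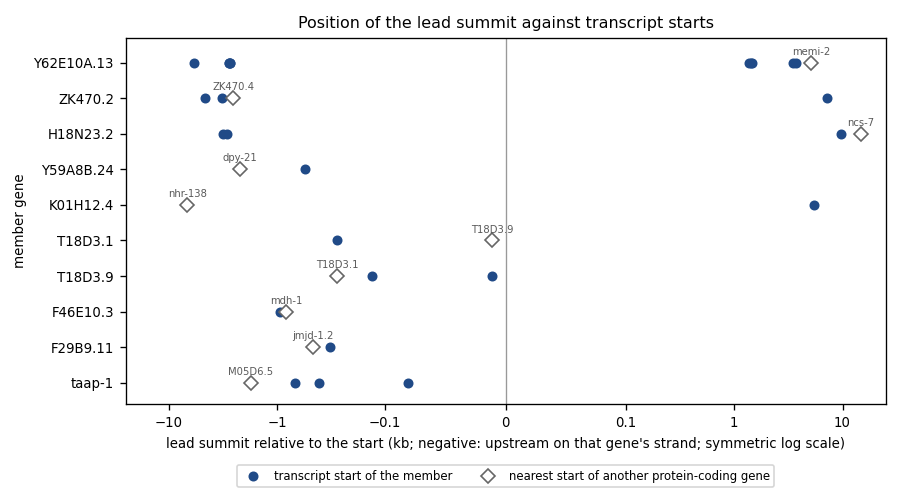
Lead summit relative to every annotated transcript start of each gene (filled) and to the nearest start of another protein-coding gene (open, named), in kb on a symmetric log axis. Values left of 0 place the summit upstream on the strand of the gene concerned.

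Y62E10A.13 carries the RefSeq product name phosphoserine phosphatase, the enzyme that completes serine synthesis from a glycolytic intermediate. The gene lies at chrIV:13389146-13399053 on the − strand and has 10 annotated transcripts with 9 distinct starts. Its lead peak (chrIV:13394707-13395727) had a signal of 3850 in the pooled list, 1425 in replicate 1 and 2439 in replicate 2. It ranked 3 in all 3 lists, and in the IDR list only the peaks nearest egl-9 and nhr-57 were higher.

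The summit lay in intron 1 of 5 of the transcripts, an intron of 4080 or 6119 bp depending on the start. The start of transcript e.1 was nearest, 1357 bp before the summit, while the short transcripts f.1 and g.1 began 2705 bp beyond it. A further IDR peak in the same introns ranked 57, with a pooled signal of 1042 and replicate signals of 368 and 673.9. Its summit was 147 bp downstream of the e.1 start and 25 bp from a TACGTGACA element. The gene thus had strong signal at an internal start and stronger signal 1210 bp further into the intron.

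Weaker peaks of Y62E10A.13 lay 775 and 999 bp upstream of the f.1 and g.1 start, with signals of 188.8 and 101.4. The first held 3 cores within 50 bp and the second none, and the second had no summit within 100 bp in replicate 1. The fifth, at 251.7, lay outside the gene, 69 bp from a start of Y62E10A.23. The nearest other gene on the left was lsm-3, an Sm-like protein gene of splicing, with its start 6395 bp from the lead summit, and on the right memi-2, with its start at 5135 bp.

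ZK470.2 had more IDR summits around it than any other protein-coding gene. Several of these summits share a region, and for several the nearest start belonged to another gene. The gene (chrX:4135155-4147844, + strand) had 14 IDR summits inside it or within 5000 bp, whereas 32.8% of protein-coding genes had at least 1 and 0.571% had 5 or more. All 10 genes had at least 1, because a lead peak chose them. Length adds to such counts: of the genes of 9000 bp or more, 3.41% had 5 or more. RefSeq names its isoforms differently, so no role is stated here. Its lead peak (chrX:4141918-4143753) had a pooled signal of 2694, against 919.8 in replicate 1 and 1827 in replicate 2, and ranked 7 in each list.

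The lead region was the widest of the 3467 distinct IDR regions, at 1836 bp against a median of 416 bp over IDR peaks, and the only one that held 4 summits. Besides the lead, these summits had signals of 1304, 1419 and 307.9 and ranks of 37, 33 and 586. It also held the most cores of any region, 19. Per length this was 10.3 matches per kb, against a median of 2.98 per kb over IDR regions and 1.7 per kb over the nuclear genome, and 233 regions, itself included, were as dense or denser.

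The whole cluster lay in intron 4 of the longest transcript, c.1, which is 8548 bp long and had 11 IDR summits in all. The lead summit was 7141 bp downstream of the c.1 start and 3205 bp upstream of the start of the shorter a.1. The short gene ZK470.4 is nested in the same intron on the opposite strand, and its start, 2529 bp away, was nearer. A peak of signal 784.5 and rank 88 lay 12 bp from the ZK470.4 start. The next gene on the right, nck-1, an adaptor protein gene, ended 6352 bp from the lead summit. Close to the a.1 start, summits lay 358 bp upstream (307) and 225 bp downstream (109.9), and the weaker of these had no summit within 100 bp in replicate 2. Of the 14 summits, 7 held a core within 50 bp, near the 42.1% of all IDR peaks.

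H18N23.2 is annotated by RefSeq as a protein phosphatase 1 regulatory subunit, the kind of protein that directs this phosphatase to its substrates. It spans chrX:17622710-17640871 on the − strand. The lead peak (chrX:17630790-17631447) had signals of 2443 in the pool, 799.9 in replicate 1 and 1645 in replicate 2, with ranks of 10, 10 and 8. Its core was a TACGTGACA centred 6 bp from the summit, the closest ACGTG of the 9 lead peaks.

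Intron 1 of the long transcript c.1, 12745 bp in length, held this summit, 9754 bp downstream of the c.1 start and 2871 bp upstream of the b.1 start. The internal starts had strong peaks of their own: a signal of 874.2 (rank 76) lay 273 bp upstream of b.1 and one of 915.7 (rank 68) lay 408 bp downstream of the nearest internal start. At the distal c.1 start the signal was lower, 191.7, although that summit, 142 bp upstream, held 5 cores within 50 bp. In all the gene had 8 IDR summits, 5 of them with a core, against 42.1% of all IDR peaks. So few summits do not set the gene apart. The gene stands apart from its neighbours: the nearest start on the left, of ncs-7, was 14774 bp from the lead summit, and that of tmem-218 on the right 18563 bp.

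Besides the lead peaks, 7 summits near the genes ranked 100 or better, and all 7 windows are shown for comparison with the lead peaks. A core lay within 50 bp of each of the 7, against 42.1% of all IDR peaks. It had the form TACGTG at 2, rank 57 at Y62E10A.13 and rank 76 at H18N23.2. The form was present at 7.96% of all IDR peaks and at 7 of the 9 lead peaks. Lead peaks have the higher signals by choice, and the difference from them was not tested. The 7 were themselves picked by rank, and the share among all peaks of rank 100 or better is not given here. Those of ranks 33, 37 and 60 lie in the same region as a lead peak. All are on the + strand, 50 bp on each side of the summit, with capitals as above.
ZK470.2, IDR rank 33 (chrX:4142741-4142841): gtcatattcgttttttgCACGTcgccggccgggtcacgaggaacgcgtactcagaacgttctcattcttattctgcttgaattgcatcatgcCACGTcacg
ZK470.2, IDR rank 37 (chrX:4142462-4142562): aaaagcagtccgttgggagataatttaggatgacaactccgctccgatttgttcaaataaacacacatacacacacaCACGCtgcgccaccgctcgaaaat
Y62E10A.13, IDR rank 57 (chrIV:13396531-13396631): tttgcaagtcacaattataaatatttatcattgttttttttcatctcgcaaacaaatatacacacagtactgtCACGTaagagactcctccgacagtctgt
F29B9.11, IDR rank 60 (chrIV:4660680-4660780): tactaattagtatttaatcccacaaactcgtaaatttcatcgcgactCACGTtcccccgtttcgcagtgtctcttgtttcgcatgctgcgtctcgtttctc
H18N23.2, IDR rank 68 (chrX:17627517-17627617): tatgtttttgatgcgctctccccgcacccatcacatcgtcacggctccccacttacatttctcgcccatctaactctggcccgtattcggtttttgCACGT
H18N23.2, IDR rank 76 (chrX:17628469-17628569): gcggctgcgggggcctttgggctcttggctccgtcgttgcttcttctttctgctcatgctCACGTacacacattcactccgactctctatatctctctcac
ZK470.2, IDR rank 88 (chrX:4139705-4139805): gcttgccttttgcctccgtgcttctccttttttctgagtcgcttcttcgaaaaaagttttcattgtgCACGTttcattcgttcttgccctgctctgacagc

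T18D3.1 and T18D3.9 are divergent genes on chromosome X whose nearest starts are 288 bp apart. T18D3.9 (chrX:12451190-12454457, − strand) carries the product name of Mpv17, a mitochondrial inner membrane protein whose loss in humans depletes mitochondrial DNA, and T18D3.1 (chrX:12454745-12457949, + strand) that of a WD repeat protein. Their shared peak (chrX:12454150-12454736) had signals of 2033 in the pool, 729.2 in replicate 1 and 1304 in replicate 2, with ranks of 15, 15 and 16. The summit lay 11 bp upstream of the longer T18D3.9 transcript and 277 bp upstream of T18D3.1. A position alone does not assign it to either gene. T18D3.6, which overlaps the far end of T18D3.9, began 4576 bp away.

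The next peaks of the pair were much weaker. One of 270 covered a tRNA gene (chrX:12458176-12458247) beyond the end of T18D3.1 and held no core, and one of 210.5 lay in an intron of T18D3.9 with 1 core. The lead signal was 7.53 times the higher of these in the pooled list, 7.02 times in replicate 1 and 8.2 times in replicate 2.

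F29B9.11 (chrIV:4659631-4660201, − strand) has the product name of cytochrome c oxidase polypeptide VIIc, a small subunit of respiratory complex IV, which passes electrons to oxygen. Its upstream region is also that of jmjd-1.2, on the other strand, which encodes a histone demethylase with a JmjC domain, and their starts are 790 bp apart. One region (chrIV:4660232-4660920) held 2 summits 208 bp from each other. The stronger had signals of 1926 in the pool, 710.6 in replicate 1 and 1219 in replicate 2, with ranks of 17, 18 and 18. It lay 321 bp upstream of F29B9.11 and 469 bp upstream of jmjd-1.2.

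The weaker summit had 994.4 in the pool, 354.9 in replicate 1 and 631.7 in replicate 2, and ranked 60 among IDR peaks. It lay on the jmjd-1.2 side, 261 bp from that start and 529 bp from the F29B9.11 start. Each summit had its own ACGTG, within TACGTG at the stronger and AACGTG at the weaker. The stronger exceeded the weaker 1.94-fold in the pool, 2.00-fold in replicate 1 and 1.93-fold in replicate 2. On the far side of F29B9.11, the start of mrps-21, a mitochondrial ribosomal protein gene on the same strand, was 1005 bp from the lead summit.

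F46E10.3 (chrV:6518297-6519042, + strand) encodes an F-box domain protein by its RefSeq name, of the family that selects substrates for ubiquitin ligases. Its lead peak (chrV:6516680-6517752) had signals of 1818 in the pool, 666 in replicate 1 and 1172 in replicate 2, with ranks of 20, 20 and 21. It lay between F46E10.3 and the divergent mdh-1, the cytosolic malate dehydrogenase gene, whose starts are 1771 bp apart. The summit was 943 bp upstream of F46E10.3 and 828 bp upstream of mdh-1, so the metabolic gene was the nearer by a small margin. Only 1 further IDR peak was present, of 112.2 near the dpy-11 start, and the lead exceeded it 16.2-fold, the highest such ratio of the loci.

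taap-1 (chrII:8482373-8483871, − strand) belongs to a class named for tail-anchored proteins, which are held in membranes by a segment at their C-terminal end. The lead peak (chrII:8483227-8484287) had signals of 2086 in the pool, 767 in replicate 1 and 1323 in replicate 2, with ranks of 14, 13 and 14. Its summit lay 81 bp upstream of the outermost start, and 413 and 683 bp upstream of the inner ones. The 2 cores within 50 bp flanked the summit, at 17 bp on the left and 15 bp on the right.

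On the other side of the taap-1 peak lies gbh-2, divergent, with 2008 bp between the starts and the RefSeq name of trimethyllysine dioxygenase, an enzyme of carnitine synthesis. A peak of 504.2 (rank 199) lay 110 bp from the gbh-2 start and held 2 cores, so each of the divergent genes had a peak close to its own start. The neighbour behind taap-1 on the same strand, M05D6.5, encodes a protein with a HIG1 domain, of a mitochondrial family first described in mammals among hypoxia-induced genes. Its start was 1749 bp from the lead summit.

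Y59A8B.24 and K01H12.4 each had a single IDR peak. Y59A8B.24 (chrV:17951949-17952149, + strand) is annotated as 1 exon of 201 bp for an uncharacterized protein. Its peak (chrV:17951119-17951714) had signals of 2229 in the pool, 784.5 in replicate 1 and 1441 in replicate 2, and ranked 11 in each list. The summit lay 553 bp upstream of its start and 2203 bp upstream of dpy-21, a histone demethylase gene of X-chromosome dosage compensation, on the other side. The other pooled candidates around the gene had signals of 16.4 to 45.8.

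K01H12.4 (chrIV:9713082-9714886, + strand) is tied to its peak by nearness alone and is described here only by position. The peak (chrIV:9718268-9718839) had signals of 1921 in the pool, 693.9 in replicate 1 and 1229 in replicate 2, with ranks of 18, 19 and 17. Its summit lay 3641 bp beyond the 3′ end of the gene and 5445 bp from its start. On the right, the nuclear hormone receptor gene nhr-138 began 6724 bp away, downstream of the summit. The nearest annotated feature was a piRNA gene, 21ur-8796, at 347 bp, so counting genes of all biotypes left 6 members whose own start was nearest.

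**Figure D4:**
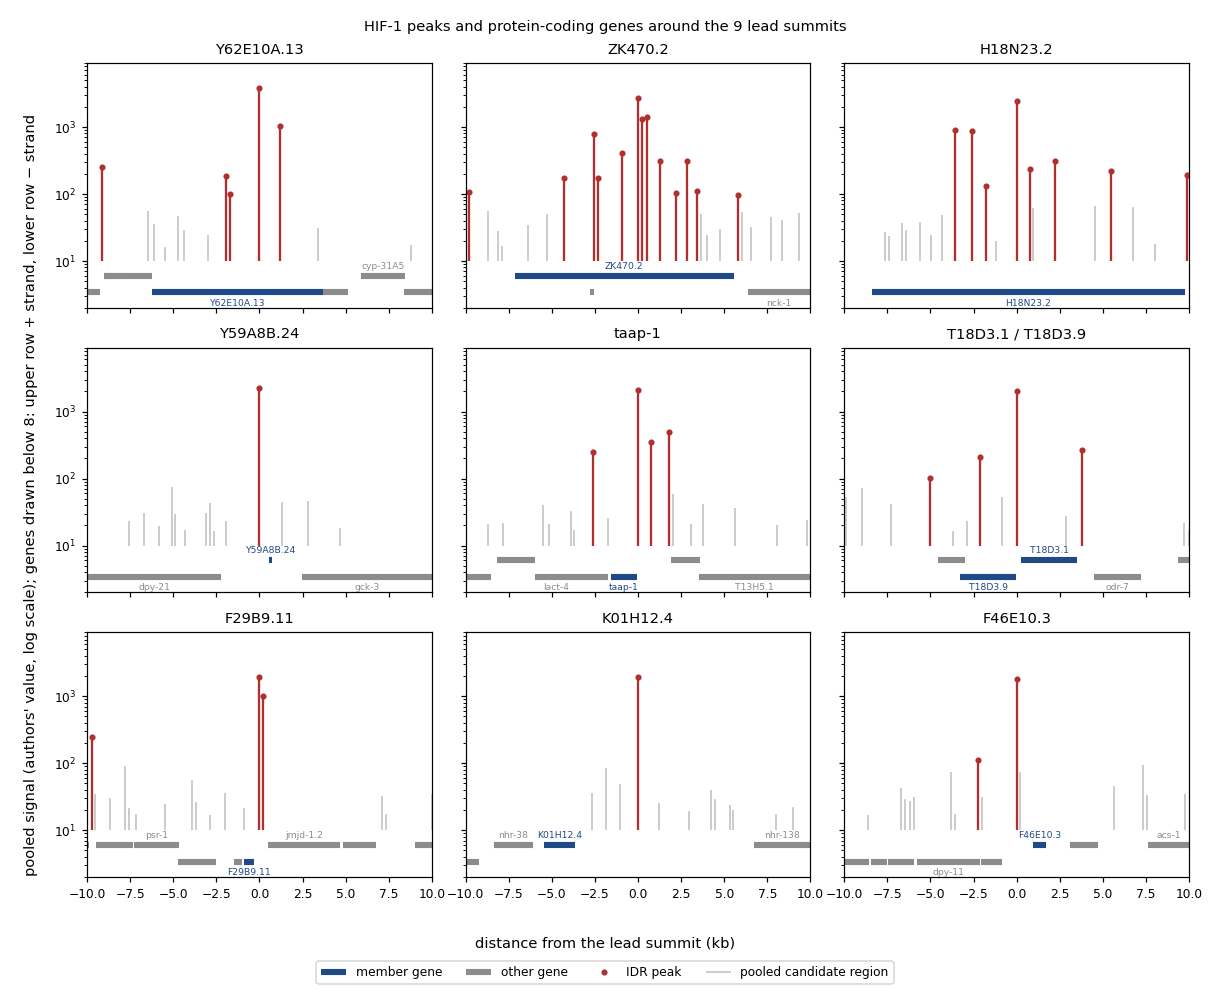
Maps of 10 kb to each side of the 9 lead summits, with IDR peaks (red) and pooled candidate regions (grey) at their pooled signal on a log axis. Genes lie below the signal, blue for the 10 genes and grey for others, with the + strand in the upper and the − strand in the lower row; ZK470.2 has a dense cluster and K01H12.4 and Y59A8B.24 an isolated peak.

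Over the 10 genes together, 41 distinct IDR summits lay inside or within 5000 bp, 32 besides the lead peaks. Their signals ran from 95.27 to 1419 with the median at 240.3. Of the 32, 30 were found in both replicates, near the 96.1% of all IDR peaks. A core lay within 50 bp of 15 of the 32, close to the 42.1% of all IDR peaks. For 19 of them the nearest start belonged to 1 of the 10 genes. The genes with 5 or more summits were Y62E10A.13, ZK470.2 and H18N23.2, 3 of the 10 against 0.571% of all protein-coding genes. These are also the longest of the 10, at 9908, 12690 and 18162 bp, and 3.41% of protein-coding genes of 9000 bp or more had as many. Each count includes the lead peak that chose the gene, so the comparison is partly set by that choice. Counted around the summits, the lead peaks and the other 11 of the 20 highest peaks both had a median of 2 other IDR summits within 5000 bp, with 0 to 10 around the lead peaks and 0 to 5 around the others, against a median of 1 over all IDR peaks. Over the 7 lead peaks with another IDR peak near the gene, the lead exceeded the next by a median of 3.69-fold. The ratio ran from 1.9-fold at ZK470.2 to 16.2-fold at F46E10.3. The lead is the strongest peak by definition and among the 20 highest by choice. The direction of these ratios, and in part their size, is set by that.

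Below the reproducible list, the pooled candidates brought the number of distinct summits near the genes to 113, with 107 in replicate 1 and 112 in replicate 2. Those outside the IDR list had pooled signals between 16.2, at Y62E10A.13, and 84.5, at K01H12.4. The lists include background regions by design, so a summit of this kind is not evidence of binding.

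**Figure D5:**
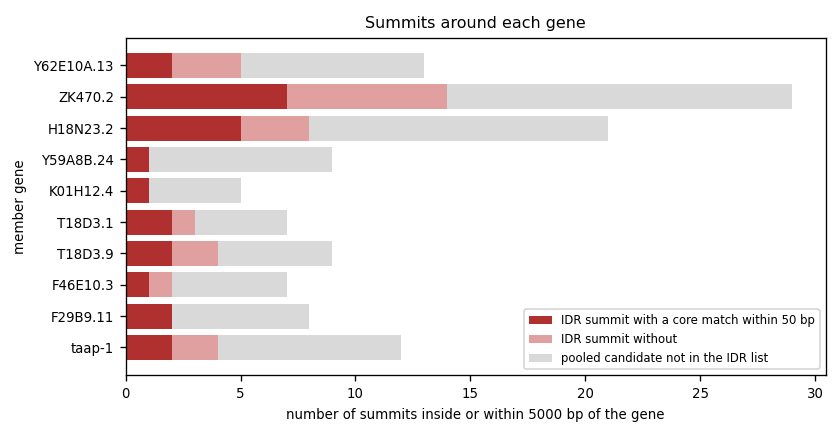
Number of pooled summits inside or within 5000 bp of each gene, split into IDR summits with a core within 50 bp (dark red), IDR summits without (light red) and candidates outside the IDR list (grey). ZK470.2 has 14 IDR summits, H18N23.2 has 8 and Y62E10A.13 has 5; T18D3.1 and T18D3.9 share 3.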

How the data were processed

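Per the READMEs deposited with the samples, the authors called regions for each replicate and for the pooled alignments, each time relative to a control, on ce10 and ce11, and drew the optimal IDR list from these. The sources used here name no aligner or peak caller. The values used are the authors' signal (column 7) and their summit position. The deposited −log10 q-value took a single value throughout the IDR list and served no step. Without read counts the depth is unknown, and no interval can be put on a signal.

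Summits were placed on ce11, which is WBcel235, against Ensembl release 115 (19973 protein-coding genes, 29784 distinct starts). Sequences came from the RefSeq genome of that assembly and product names from its annotation. Each gene's lead peak was the strongest IDR peak inside or within 5000 bp of it. Motifs were exact matches on either strand, fully within 50 bp of a summit, and a peak counted as found in a replicate with a summit within 100 bp. Scripts ran in Python 3.11.15 with pandas 2.3.3 and were tested on simulated data. All 10 members are named, with the nearest protein-coding gene on each side of every lead summit. Further genes starting within 5000 bp of a lead summit, such as lact-4 near taap-1 and col-111 near F29B9.11, are not all named. The windows tried for TACGTG and the form TACGTGACA were chosen after seeing the data. The members, lists and alternatives were chosen with earlier results of these data known, and no p-value was computed, since the genes were chosen by their signal and only 1 group was measured.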

Additional observations from a re-analysis of the deposited data

How the results depend on the processing

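The count of lead peaks found in both replicates remained 9 with distances of 50 and 250 bp and with any overlap of the regions. It was also 9 with the 3531 strongest regions of each replicate and with the ce10 lists. Each replicate taken alone held all 9. The 41 IDR summits near the genes became 36 within 2000 bp, 43 within 10000 bp and 32 with only the stronger IDR peaks, split at the median. Of the 41, 40 had a summit within 100 bp in replicate 1, and 40 had one in replicate 2. The IDR list itself rests on both replicates and was not drawn again without either. The 8 lead peaks with a core became 4 with a window of 25 bp, 9 with 100 bp and 7 with ACGTG only, and remained 8 at the summits of either replicate. The CACGTG of the ZK470.2 peak was not within 50 bp of the replicate 1 summit. The members whose own start was nearest numbered 7 with outermost starts, start codons or either replicate's summit, and 6 with genes of all biotypes. The median ratio of the lead to the next peak, 3.69, was 3.87 in the replicate 1 list and 3.62 in the replicate 2 list. It was 3.18 when only peaks within 2000 bp of the gene counted, which leaves F46E10.3 without a further peak. Within 10000 bp it was 3.69. Measured to the outermost start, the lead summits of Y62E10A.13, ZK470.2 and H18N23.2 lay 3682, 7141 and 9754 bp away. The distance to the nearest own start moved by 11 bp at most with the summit of either replicate. No paired analysis was possible because there is only 1 group. Depth is not known from region lists, so whether weak or absent peaks reflect it was not tested.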

Other observations

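A few neighbours of the 10 genes, jmjd-1.2, dpy-21 and gbh-2, encode oxygenases that use 2-oxoglutarate, the class to which EGL-9 belongs. This grouping was noticed after the values were seen and was not tested, and no share over all genes was counted. Most of the neighbours, among them lsm-3, memi-2, nck-1, ncs-7, mdh-1, dpy-11, mrps-21 and col-111, are not of this class. Besides jmjd-1.2 beside F29B9.11, the grouping holds dpy-21, whose start lay 2203 bp from the Y59A8B.24 summit. It also holds gbh-2, whose start lay 110 bp from a peak of signal 504.2 that was not a lead peak. Among the other 11 highest peaks, the nearest genes egl-9 and jmjd-2 fall in the same class. Most of the 11, among them those nearest nhr-57, pck-1, tpi-1, sdha-1 and rhy-1, do not.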
